A study of Mus musculus with 29 samples.

Results

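The insulin-like growth factor (IGF) binding proteins Igfbp2 to Igfbp7, the receptors Igf1r, Igf2r and Insr, and the receptor adaptor Irs1 were followed in cultured mouse keratinocytes, the epithelial cells of the epidermis. Their probes were taken from the array annotation by gene symbol, which gave 14 probes for 10 genes among 25697 probes. Probes were selected on detection: those with p below 0.01 on 2 or more of the 29 arrays were kept, which left 9 probes of 6 genes among 11794 probes in all. The detection p-values are therefore given below as a description.

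IGF1 and IGF2 are secreted ligands that activate the receptor tyrosine kinase encoded by Igf1r, which signals through adaptors such as Irs1 to PI3-kinase, AKT and mTOR and to growth and survival. Binding proteins hold the ligands outside the cell, carry them, and limit or prolong their access to the receptor, and proteases release the ligands by cutting the binding proteins. In skin, keratinocytes respond to IGF1 made largely by dermal fibroblasts, and IGF signalling takes part in the balance between proliferation and differentiation of the epidermis.

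All cultures were primary tail keratinocytes of C57BL/6 mice labelled c-FostetON, grown at 32 °C, and total RNA was hybridised to Illumina bead arrays. Cultures without doxycycline are called untreated here, and the cultures labelled Dox had doxycycline, an inducer of tetracycline-controlled transgenes, for 6, 12, 24, 48 or 72 h, at a dose that 1 label gives as 1 µg/ml and another as 1 µg/L. The arrays numbered 2, 2, 3, 3 and 4 for untreated cultures and 3, 3, 3, 2 and 4 for cultures labelled Dox at the 5 times, in that order. The 2 arrays of a treatment at 72 h that carry the same letter, C, entered as their mean, so 10 groups hold 27 replicates. The sources used here give neither the promoter that drives the transgene nor whether replicates came from separate animals, so p-values measure the spread between these samples. No culture lacked the transgene, and so doxycycline and c-Fos as sources of a difference cannot be told apart.

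The probe for Fos, the AP-1 subunit that the transgene encodes, did not read higher on the arrays labelled Dox. This 1 probe was lower on them, with differences of -0.76 (SE 0.16) on the log2 scale at 24 h, -0.83 at 48 h and -0.78 at 72 h (adjusted p = 0.00547, 0.00551 and 0.00166, limma). At 6 and 12 h the differences were -0.39 and -0.32 (adjusted p = 0.106 and 0.453). The call at 24 h was lost under a block for array set (-0.82, adjusted p = 0.125) and when untreated replicate 1 was left out (-0.66, adjusted p = 0.0538). That at 48 h ended without Dox replicate 1 (-0.78, adjusted p = 0.0983) and on the authors' values (-0.25, adjusted p = 0.999). The sources used here do not place this probe on the transgene transcript, so it checks nothing about the transgene. Every direction below follows the labels, and "Dox" means arrays labelled Dox. The keratinocyte identity held on 8 of 9 marker genes detected on at least 2 arrays, Krt5, Krt14 and Trp63 on all 29, while 8 of 10 fibroblast markers and 7 of 7 leukocyte markers were detected on no array. Of 6 melanocyte markers Pmel was detected on 28 arrays, Dct on 21, Tyrp1 on 17 and Mlana on 12, and the fibroblast marker Thy1 was on 11 and the endothelial marker Kdr on 4. The 2 untreated arrays at 6 h stood apart: the log2 difference between 2 probes of Actb was 3.95 and 4.59 on them and ran from -4.78 to 1.63 on the others, and their median correlation with other arrays was 0.953 and 0.952 against at least 0.968. Arrays fall into 4 sets by the distribution of the authors' values, comparisons at 12 and 24 h cross sets, and 72 h is a set of its own.

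The promoters of the members that differed most, Igfbp2 and Igfbp3, are shown because c-Fos, which the transgene encodes, is part of the factor AP-1. Its binding site was searched for as TGANTCA (N, any base), and AP-1 need not bind each sequence of that pattern. The letters are the 250 bases before a transcription start in RefSeq on build GRCm38.p6, 5′ to 3′ on the strand of the gene, in lower case with matches to TGANTCA in capitals. RefSeq lists 2 starts for Igfbp2, at chr1:72824230-72824479 (plus strand, first start) and chr1:72825137-72825386 (plus strand, second start) for the windows shown, and 1 for Igfbp3, at chr11:7213924-7214173 (minus strand).
Igfbp2, first start: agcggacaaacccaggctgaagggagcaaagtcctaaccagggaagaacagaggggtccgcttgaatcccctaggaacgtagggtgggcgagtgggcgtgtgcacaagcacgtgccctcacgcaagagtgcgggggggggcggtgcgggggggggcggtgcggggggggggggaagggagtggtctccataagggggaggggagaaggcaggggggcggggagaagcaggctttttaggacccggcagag
Igfbp2, second start: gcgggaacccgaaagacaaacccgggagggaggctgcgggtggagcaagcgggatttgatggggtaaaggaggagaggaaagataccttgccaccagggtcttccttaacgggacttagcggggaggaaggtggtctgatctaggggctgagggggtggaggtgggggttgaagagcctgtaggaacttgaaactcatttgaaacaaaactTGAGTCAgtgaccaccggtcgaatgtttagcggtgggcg
Igfbp3: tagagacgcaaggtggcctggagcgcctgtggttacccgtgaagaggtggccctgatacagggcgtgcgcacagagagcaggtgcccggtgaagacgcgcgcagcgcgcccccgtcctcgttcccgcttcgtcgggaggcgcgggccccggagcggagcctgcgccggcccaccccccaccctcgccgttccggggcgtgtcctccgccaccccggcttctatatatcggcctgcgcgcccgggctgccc
The second Igfbp2 window holds TGAGTCA from position -39, counted back from the start, and the first Igfbp2 window and the Igfbp3 window hold no match. The motif reads the same on both strands apart from the middle base, so 1 search covered both. Among 10 windows of 9 member genes this was the 1 match, and 6.75% of all 32851 RefSeq windows of the same length hold the motif. Igfbp2 lies next to Igfbp5 on chromosome 1, and Igfbp3 next to Igfbp1 on chromosome 11, with no protein-coding gene between the members of either pair in RefSeq.

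Among the members, Igfbp2 was lower and Igfbp3 higher on the arrays labelled Dox, in patterns that differed over time. Igfbp2 came up in untreated cultures between 24 and 72 h and was detected on no array labelled Dox. Igfbp3 read higher on Dox arrays at each of the 5 times, most at 6 h, where the untreated arrays were lowest. The binding proteins Igfbp4 and Igfbp7 and the receptors Igf1r and Igf2r passed the test at 6 or 24 h or not at all, and none of them did at 48 or 72 h. A probe is said to have passed, or to be called, at an adjusted p below 0.05 in the limma fit over all kept probes.

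Counts of members are read against all kept probes. At 6 h 5 of 9 member probes were called (3 higher with Dox, 2 lower), where 25.4% of all kept probes were. At 12 h it was 1 of 9 against 1.6%, at 24 h 2 of 9 against 2.54%, at 48 h 3 of 9 against 2.35%, and at 72 h 3 of 9 against 5.61%. The median difference over the 9 probes was 0.12 at 6 h, -0.07, -0.09 and -0.28 at 12, 24 and 48 h, and -0.01 at 72 h, where the medians over all kept probes were -0.054, -0.006, -0.014, -0.002 and 0. Both Igfbp2 probes were kept through untreated arrays alone, so their part of these counts follows in part from the detection filter.

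**Figure D1:**
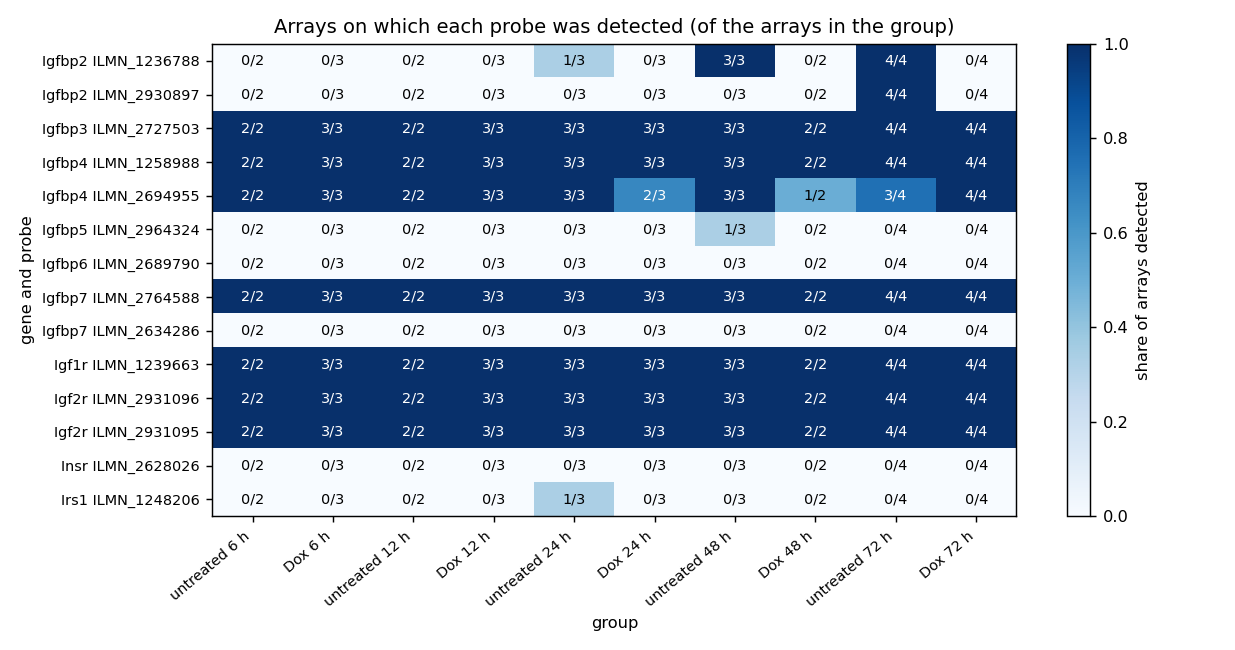
Number of arrays in each of the 10 groups on which each of the 14 annotated probes was detected at p below 0.01, with the share of the arrays in the group as shading. The Igfbp2 probes were detected on untreated arrays, the first from 24 h on and the second at 72 h, and on no Dox array, 5 probes were detected on 0 or 1 array, and the other 7 on 26 to 29 arrays.

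Igfbp2, a binding protein of both IGFs that also contacts integrins, was measured by 2 probes. Detection of probe ILMN_1236788 was limited to 8 of 14 untreated arrays, 1 at 24 h, 3 at 48 h and 4 at 72 h, against 0 of 15 Dox arrays. Its log2 value, taken after background correction and normalization, read 4.33 and 4.24 on the untreated arrays at 6 h and 4.34 and 4.27 at 12 h. Dox arrays read 4.19, 4.26 and 4.31 at 6 h and 4.26, 4.24 and 4.20 at 12 h, all below detection. The differences were -0.03 (95% interval -0.27 to 0.21) at 6 h and -0.07 (-0.32 to 0.17) at 12 h, and neither passed.

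At 24 h the untreated arrays read 4.68, 4.56 and 4.83 and the Dox arrays 4.27, 4.45 and 4.40 on this probe. The groups did not overlap, yet the difference of -0.32 (SE 0.11) did not pass (adjusted p = 0.115). At 48 h the untreated arrays read 5.59, 5.94 and 5.57 and the Dox arrays 4.49 and 4.40, with a clear gap between the groups. The difference was -1.26 (SE 0.12, adjusted p = 8.56e-08), with measured means of 4.44 with Dox and 5.70 untreated. Since no Dox array detected the probe, it is given as at least 1.91-fold lower with Dox, against the lowest detected signals of those arrays. The probe was kept through untreated arrays alone, so the detection filter favours such a difference.

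By 72 h the untreated arrays had reached 6.74, 7.02, 6.87 and 6.84, a mean of 6.87 ± 0.14 (SD, n = 3), while the Dox arrays read 4.54, 4.40, 4.45 and 4.33, a mean of 4.44 ± 0.08 (SD, n = 3). All 4 untreated arrays lay far above all 4 Dox arrays, and in raw signal they read 181, 202, 178 and 189 against 70.7, 67.8, 69.2 and 68.7. Igfbp2 was at least 4.33-fold lower with Dox on this probe (difference -2.43, SE 0.11, adjusted p = 2.48e-14). As at 48 h, the detection filter favours a difference in this direction. In these bulk samples fewer cells with the transcript and less transcript per cell cannot be told apart.

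The second Igfbp2 probe, ILMN_2930897, was detected on the 4 untreated arrays at 72 h and on no other, which puts it just inside the detection rule. Its values at 72 h were 5.64, 5.30, 5.47 and 5.72 without Dox and 4.30, 4.40, 4.32 and 4.31 with Dox. These groups did not overlap, and the probe was at least 1.69-fold lower with Dox (difference -1.17, SE 0.09, adjusted p = 1.77e-09). The detection filter favours this difference too, since untreated arrays alone kept the probe. At 48 h it was below detection in both groups, at 4.73, 4.66 and 4.62 against 4.25 and 4.27, and its difference of -0.41 (adjusted p = 0.0314) lost the call without either Dox array (-0.40, adjusted p = 0.201, without replicate 1, and -0.42, adjusted p = 0.179, without replicate 2), without untreated replicate 1 (-0.38, adjusted p = 0.113) and without untreated replicate 2 (-0.41, adjusted p = 0.0735). The 2 probes correlated at 0.93 over the 27 replicates, a description of arrays that share time and treatment. On the authors' normalized values the first probe differed by -0.22 at 48 h (adjusted p = 0.1) and by -0.91 at 72 h (adjusted p = 9.14e-11).

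**Figure D2:**
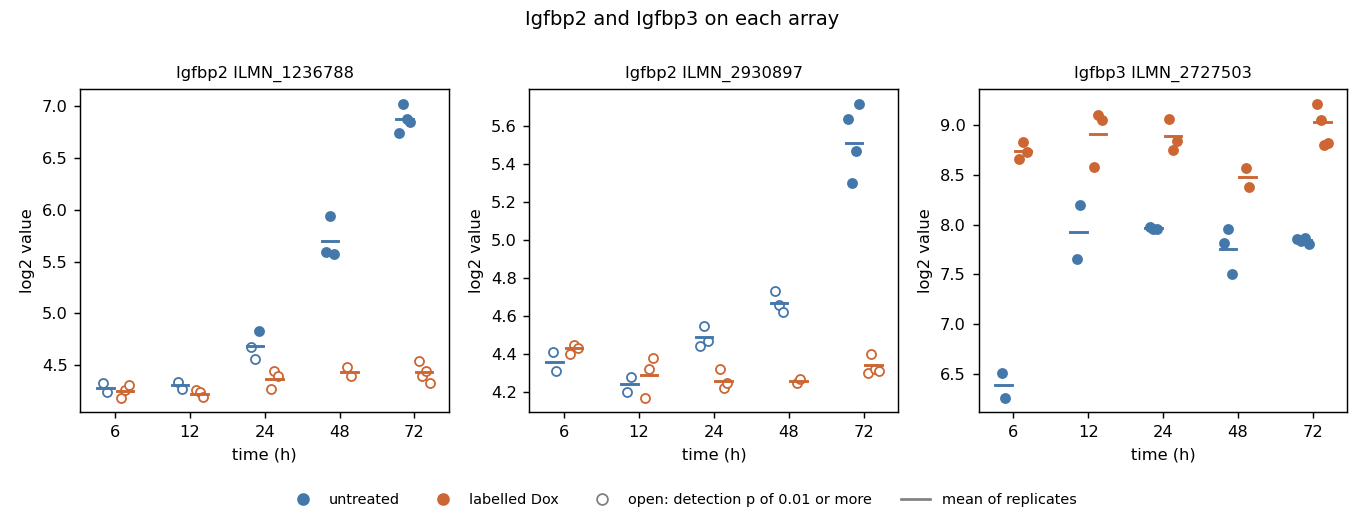
Log2 value of the 2 Igfbp2 probes and the Igfbp3 probe on each of the 29 arrays by time in hours, untreated in blue and labelled Dox in orange, with open points where the probe was not detected and a bar at the mean of the replicates. Igfbp2 climbs on untreated arrays at 48 and 72 h and stays below detection on Dox arrays, and every Igfbp3 value on Dox arrays, 8.38 to 9.22, lies above every untreated value, 6.26 to 8.20.

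Ordered by level, the 10 groups of probe ILMN_1236788 ran from untreated 72 h (6.87) through untreated 48 h (5.70) and untreated 24 h (4.69), each apart from the next with no shared values. The 7 groups below them lay between 4.44 and 4.23, all undetected, and neighbours among them overlapped. Genes whose pattern was most like that of Igfbp2 over the 27 replicates were Acta2, smooth muscle actin (Pearson r = 0.937), Krt42, a type I keratin (0.931), and Dio3, a thyroid hormone deiodinase (0.928), which differed at 72 h by -1.72, -2.33 and -0.89. These replicates share time, set and treatment, so the correlations describe and do not test.

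Acta2 is also on the list of smooth muscle and pericyte markers, whose summed level was lower on Dox arrays at 6, 24, 48 and 72 h. That sum of background-corrected signal was 466 to 565 in untreated and 329 to 443 in Dox arrays at 6 h, where Igfbp2 did not differ. At 12 h the ranges overlapped (494 to 553 and 480 to 541). They were 666 to 734 and 484 to 523 at 24 h, 1570 to 1780 and 733 to 841 at 48 h, and 2880 to 3730 and 937 to 1140 at 72 h. Of its 6 genes Acta2 was detected on 29 arrays and Des, an intermediate filament gene, on 5, Cnn1 and Tagln on 1 each, and Myh11 and Rgs5 on none. The brightest Acta2 probe, ILMN_2693895, differed by -0.48 at 24 h, -1.11 at 48 h and -1.71 at 72 h (adjusted p = 0.0255, 3.98e-06 and 9.6e-11). Des differed by -0.06 at 72 h (adjusted p = 0.898). Within cultures labelled Dox this Acta2 probe rose by 1.06 from 24 to 72 h (adjusted p = 3.69e-07), while Igfbp2 ILMN_1236788 differed by 0.07 and stayed below detection. The call of ILMN_2693895 at 24 h was lost with each of the 6 replicates left out in turn (-0.51 to -0.43, adjusted p = 0.057 to 0.0978), with a block for array set (-0.53, adjusted p = 0.241) and with only the 2 groups compared (adjusted p = 0.0738). The Acta2 probe most like Igfbp2, ILMN_2923445, differed by -0.49 at 24 h (adjusted p = 0.00361). Probes ILMN_2710354 and ILMN_2710353 differed by -0.45 and -0.37 (adjusted p = 0.133 and 0.207). At 6 h these read 0.62 and 0.35 where ILMN_2693895 and ILMN_2923445 read -0.48 and -0.42. The summed fibroblast markers were 39.2 to 51.1 in untreated and 38.5 to 49 in Dox arrays at 72 h, and the keratinocyte markers 34500 to 37900 and 35000 to 37500. The keratinocyte sum is set by its brightest genes. Of 8 kept keratinocyte genes 2 were called at 72 h, both higher with Dox, where 5.61% of all kept probes were called. These were Itga6, an integrin of basal cells (0.89, adjusted p = 0.000226), and Trp63, a transcription factor of basal cells (0.56, adjusted p = 0.00288). The others were not called: Krt5 (-0.05), Krt14 (-0.01), Cdh1 (-0.18), Perp (0.15), Sfn (0.09) and Krt10 (-0.17). The median of the list at 72 h was 0.04. Itga6 alone was called at 24 h (0.58, adjusted p = 0.0332), where 2.54% of all kept probes were. The summed melanocyte markers were 61.8 to 84.6 in untreated and 55.7 to 72 in Dox arrays at 72 h. Endothelial markers, of which 5 of 6 were detected on no array, summed to 36.2 to 41.9 and 26.7 to 31.9 at 48 h. At 72 h these sums were 24.8 to 35.7 and 22.4 to 30.6. The part of other cells in the Igfbp2 difference was not tested.

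Igfbp3, the main carrier of IGFs in serum and a binding protein of basal keratinocytes in human epidermis, was measured by probe ILMN_2727503 and detected on all 29 arrays. At 6 h the untreated arrays read 6.51 and 6.26 and the Dox arrays 8.66, 8.83 and 8.73, a mean of 6.39 ± 0.18 (SD, n = 2) against 8.74 ± 0.09 (SD, n = 3). The groups lay far apart, and Igfbp3 was 5.10-fold higher with Dox (difference 2.35, SE 0.17, adjusted p = 3.63e-10), the 22nd highest of 11794 differences. The untreated arrays at 6 h are those that stand apart in the Actb probes. Their Actb probe difference was 3.95 and 4.59, against -4.03, -3.44 and -3.84 with Dox. As a covariate it can therefore hardly be told from treatment at 6 h, and calls kept or lost under it decide little there. With this covariate the Igfbp3 difference was 1.93 (SE 0.33, adjusted p = 0.00238). On the authors' normalized values it was 1.25 (adjusted p = 0.000413). Of 8 kept keratinocyte genes 2 were called at 6 h, where 25.4% of all kept probes were. Both were higher with Dox, Krt5 (0.77, adjusted p = 0.000423) and Sfn (0.79, adjusted p = 0.000194). The others were not called: Krt14 (0.02), Trp63 (0), Itga6 (0.40), Cdh1 (0.10), Perp (0.07) and Krt10 (-0.07), and the list median was 0.08. Thy1 was lower with Dox on the same arrays (-0.64, adjusted p = 0.0147). The part of whatever sets the 2 untreated arrays at 6 h apart was not tested.

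At 12 h Igfbp3 read 7.66 and 8.20 untreated and 8.58, 9.10 and 9.05 with Dox, again without overlap. The difference was 0.98 (SE 0.17, adjusted p = 0.00404), and it was 0.71 without untreated replicate 1, which lies in another array set (adjusted p = 0.177), the same value as with a block for array set. It also lost the call with the Actb covariate (0.80, adjusted p = 0.273). At 24 h the untreated arrays were closely grouped at 7.98, 7.96 and 7.96, below the Dox arrays at 9.06, 8.75 and 8.84. Igfbp3 was 1.89-fold higher with Dox at that time (difference 0.92, SE 0.15, adjusted p = 0.000454), and 1.09 with a block for array set (adjusted p = 0.00416). Untreated replicate 1 at 24 h had a raised Actb probe difference, 0.91 against -4.12 and -3.39 in the others, and its Igfbp3 value of 7.98 lay close to theirs.

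At 48 h the values were 7.82, 7.96 and 7.50 untreated and 8.57 and 8.38 with Dox. The arrays kept apart, and the difference of 0.72 (SE 0.17, adjusted p = 0.0148) was the smallest of the 5. It lost the call without Dox replicate 1 (0.62, adjusted p = 0.211), without Dox replicate 2 (0.81, adjusted p = 0.0607) and without untreated replicate 3 (0.58, adjusted p = 0.0853), and on the authors' values (0.46, adjusted p = 0.928). At 72 h the untreated arrays read 7.86, 7.84, 7.87 and 7.81 and the Dox arrays 9.22, 9.05, 8.80 and 8.82. Every Dox array was higher, by 2.26-fold in the mean (difference 1.18, SE 0.15, adjusted p = 4.69e-06, the 19th highest of 11794), and in raw signal 678, 647, 588 and 609 against 337, 316, 306 and 326. On the authors' normalized values the difference at 72 h was 0.95 (adjusted p = 0.00118).

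The 5 Dox groups held the 5 highest Igfbp3 means, from 9.03 at 72 h to 8.48 at 48 h, and Dox 72, 12, 24 and 6 h overlapped with their neighbours in that order. Below them the untreated groups at 24, 12, 72 and 48 h lay between 7.97 and 7.76 and overlapped, and untreated 6 h stood 1.37 lower than the next group. The genes most like Igfbp3 over the 27 replicates were Cr1l, a complement regulator (Pearson r = 0.931), Ntan1, an N-terminal asparagine amidohydrolase (0.915), and Aebp2, a cofactor of the Polycomb repressive complex (0.907). At 72 h these differed by 1.11 (adjusted p = 7.23e-06), 0.28 (adjusted p = 0.058) and 0.56 (adjusted p = 0.0789).

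**Figure D3:**
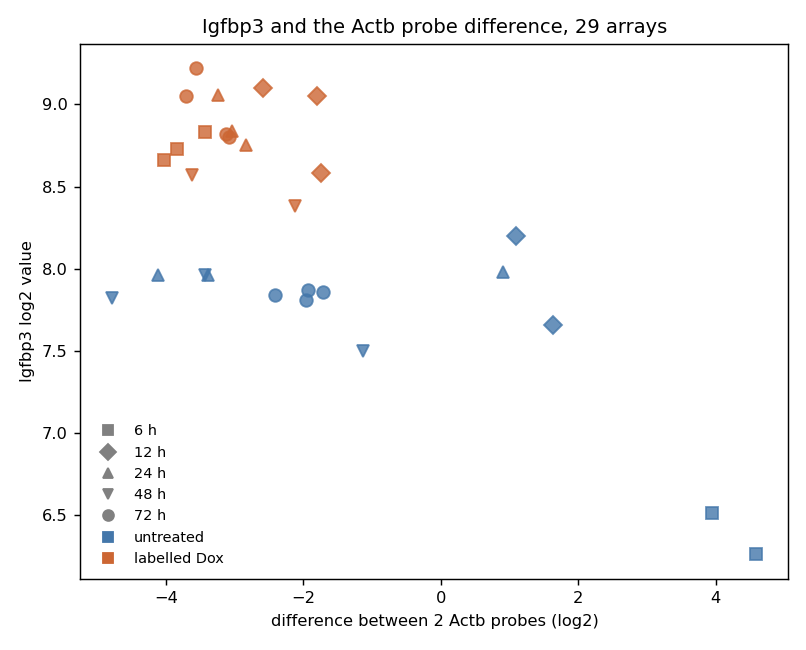
Igfbp3 log2 value of each of the 29 arrays against the log2 difference between 2 Actb probes on the same array, with symbols for time and colours for treatment. The 2 untreated arrays at 6 h lie alone at an Actb difference of 3.95 and 4.59 and at the lowest Igfbp3 values, 6.51 and 6.26, and over the rest the Dox arrays lie above the untreated arrays.

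Igfbp4, a binding protein that the protease Pappa cuts to free its ligand, had 2 kept probes whose differences had opposite signs at 4 of 5 times. Probe ILMN_2694955 read 5.54 and 5.56 untreated and 5.07, 5.23 and 4.87 with Dox at 6 h, all Dox arrays below both untreated ones. Its difference of -0.49 (SE 0.15, adjusted p = 0.02) was not called without untreated replicate 1 (-0.51, adjusted p = 0.0826), untreated replicate 2 (-0.48, adjusted p = 0.103) or Dox replicate 3 (-0.40, adjusted p = 0.09). It was -0.08 on the authors' values (adjusted p = 0.346) and -0.20 with the Actb covariate (adjusted p = 0.814). Probe ILMN_1258988 differed by 0.12 at 6 h (95% interval -0.20 to 0.44).

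At 24 h ILMN_1258988 read 5.56, 5.64 and 5.33 untreated and 5.79, 6.28 and 5.81 with Dox, and ILMN_2694955 read 5.45, 5.35 and 5.37 against 5.22, 5.16 and 4.66. On the first probe the Dox arrays were higher and on the second lower, without overlap in either. The differences of 0.45 (SE 0.14, adjusted p = 0.0784) and -0.37 (SE 0.14, adjusted p = 0.16) did not pass. At 72 h they were -0.13 (95% interval -0.42 to 0.15) and 0.04 (-0.24 to 0.33). Over the 27 replicates the 2 probes correlated at 0.31, so no direction is given for the gene.

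Igfbp7, a secreted protein related to the binding proteins with low affinity for IGFs, was detected by 1 of its 2 probes on all 29 arrays and by the other on none. The detected probe, ILMN_2764588, had the widest spread between replicates among the 9, a mean SD within groups of 0.37. At 72 h it read 7.78, 7.93, 6.85 and 7.07 untreated and 6.73, 7.53, 7.53 and 7.39 with Dox, and the groups overlapped. Its differences ran from -0.45 at 12 h to 0.31 at 24 h and none passed. The 95% interval at 72 h, -0.84 to 0.21, leaves room for a change of either sign.

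Igfbp5, a binding protein that attaches to matrix, and Igfbp6, which prefers IGF2, had 1 probe each and were not kept. Igfbp5 lay just outside the rule, detected on 1 array, untreated replicate 1 at 48 h. Its next lowest detection p-values were 0.0138 and 0.0276, on a Dox array at 24 h and an untreated array at 48 h. Igfbp6 had no detection p below 0.102 on any array. No difference is given for either, since their signals could not be told from the array background.

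Igf1r, the receptor tyrosine kinase for IGF1 and IGF2, was detected on all 29 arrays by probe ILMN_1239663. At 6 h the untreated arrays read 5.72 and 5.04 and the Dox arrays 6.02, 6.15 and 6.21. The Dox arrays were all higher, and the difference was 0.75 (SE 0.17, adjusted p = 0.00167). Without untreated replicate 2 it was 0.41 (adjusted p = 0.14), which leaves 1 untreated array that is assumed to vary like the other groups. With the Actb covariate the difference was 0.81 with an SE of 0.35 (adjusted p = 0.251), and on the authors' values 0.18 (adjusted p = 0.0407). At 72 h Igf1r read 6.22, 5.77, 5.85 and 6.08 untreated and 6.10, 6.03, 6.01 and 5.89 with Dox. These overlapped, with a difference of 0.04 (95% interval -0.27 to 0.35), and the differences at 12, 24 and 48 h were -0.28, -0.09 and -0.30, none of which passed.

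Igf2r encodes the cation-independent mannose 6-phosphate receptor, which clears IGF2 and sorts lysosomal enzymes, and its 2 probes were detected on all 29 arrays. At 6 h ILMN_2931096 read 6.56 and 6.80 untreated and 7.28, 6.98 and 7.39 with Dox, whereas ILMN_2931095 read 7.59 and 7.21 untreated and 6.79, 6.66 and 6.78 with Dox. The probes moved in opposite directions, by 0.54 (SE 0.17, adjusted p = 0.0195) and -0.66 (SE 0.14, adjusted p = 0.00106), and both calls ended with the Actb covariate (0.95, adjusted p = 0.147, and -0.28, adjusted p = 0.686). Without untreated replicate 1 they were 0.42 (adjusted p = 0.186) and -0.47 (adjusted p = 0.0593), and ILMN_2931096 also lost its call without Dox replicate 1 (0.51, adjusted p = 0.0509) and without Dox replicate 3 (0.45, adjusted p = 0.0797). The gene as a whole is given no direction at 6 h.

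At 24 h ILMN_2931096 read 7.18, 6.90 and 7.22 untreated and 6.47, 6.63 and 6.51 with Dox. All Dox arrays were lower, and the difference of -0.57 (SE 0.15) passed narrowly (adjusted p = 0.0404), while ILMN_2931095 differed by 0.11 (adjusted p = 0.739). Leaving out untreated replicate 1 or 3 or any Dox replicate ended the call, with differences of -0.61 to -0.51 and adjusted p of 0.0717 to 0.159, as did a block for array set (-0.63, adjusted p = 0.313). At 72 h the 2 probes differed by 0.16 (95% interval -0.15 to 0.47) and -0.01 (-0.27 to 0.24).

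The insulin receptor gene Insr and the docking adaptor gene Irs1 had 1 probe each and were not kept. Insr was detected on no array, with a lowest detection p of 0.086. Irs1 was just outside the rule, with its 1 detection on an untreated array at 24 h. Of the other adaptors, Irs2 was detected on all 29 arrays.

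**Figure D4:**
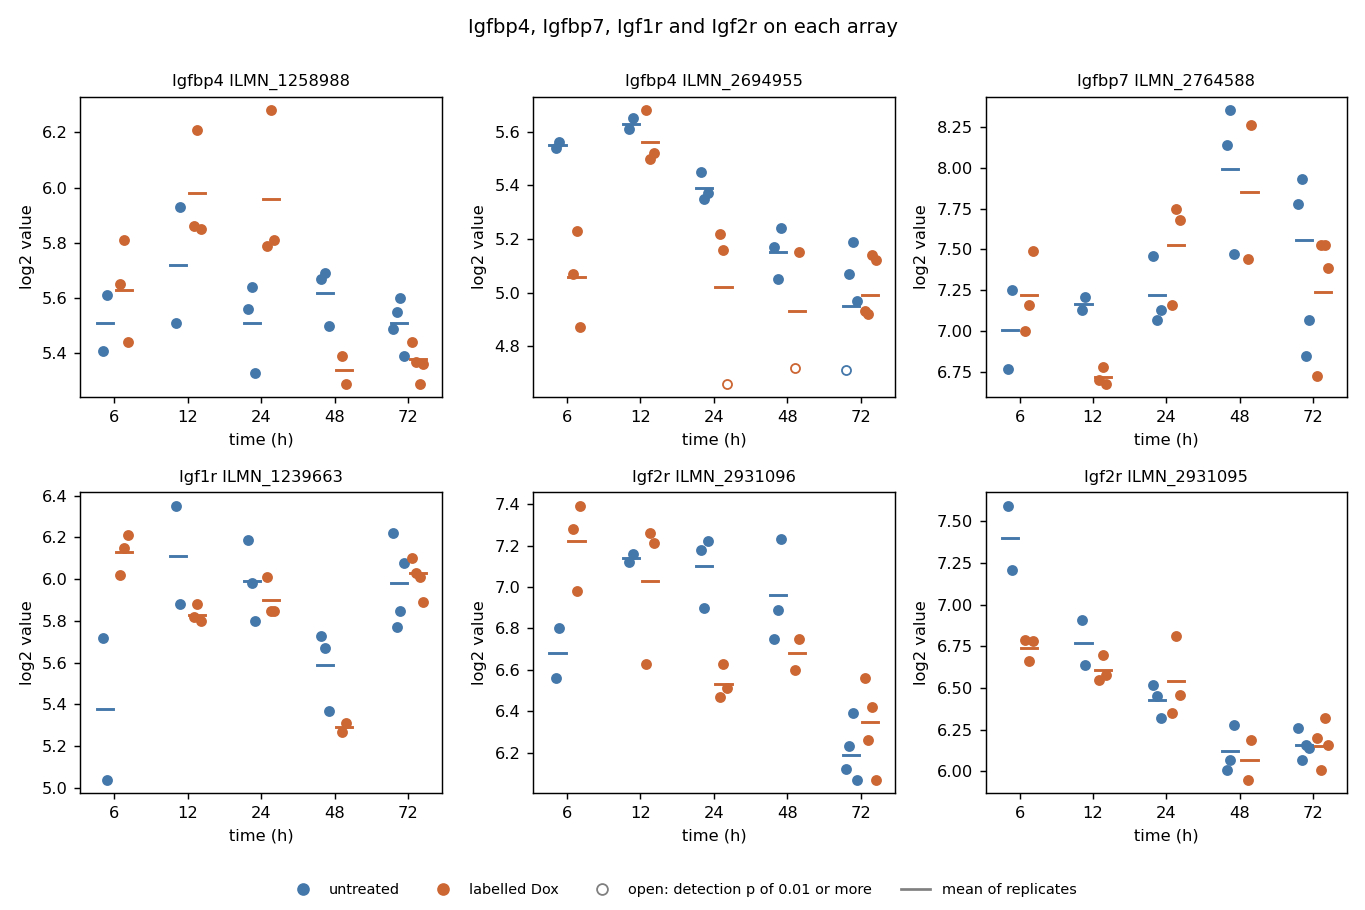
Log2 value of the kept Igfbp4, Igfbp7, Igf1r and Igf2r probes on each of the 29 arrays by time in hours, untreated in blue and labelled Dox in orange, with open points where a probe was not detected and a bar at the mean of the replicates. The 2 Igf2r probes part in opposite directions at 6 h, and at 72 h the values of all 6 probes overlap between treatments.

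Whether the Dox difference changed over time was tested by an F test across the 5 times, which called 6 of 9 member probes, where 15.3% of all kept probes were called. The 2 Igfbp2 probes were kept through untreated arrays alone, so the detection filter bears on this count too. The called probes were those of Igfbp2 (adjusted p = 2.48e-10 and 1.96e-06), Igfbp3 (adjusted p = 8.15e-05), Igf1r (adjusted p = 0.0114) and both Igf2r probes (adjusted p = 0.00836 and 0.0408). Without the 6 h arrays the 2 Igfbp2 probes were called (adjusted p = 7.4e-10 and 2.06e-05) and Igfbp3 was not (adjusted p = 0.633), nor were Igf1r (0.739) or Igf2r (0.234 and 0.831). From 12 h on a change over time in the Igfbp3 difference was not detected with these replicates. The Igf1r result also ended without untreated 6 h replicate 2 (adjusted p = 0.173). That of Igf2r ILMN_2931095 (F = 4.70) was lost without any 1 of 11 replicates. Without untreated 6 h replicate 1, which leaves 1 array in that group, F was 2.10. The adjusted p was 0.0506 to 0.104 without any of the others. Those were Dox 6 h replicates 1, 2 and 3, untreated 24 h replicates 2 and 3, and Dox 24 h replicate 2. At 72 h they were untreated replicates 2 and 3 and Dox replicates 1 and 3, where replicate 3 is the mean of the 2 letter C arrays. Igfbp4 ILMN_1258988 (adjusted p = 0.0638) was called without untreated 12 h replicate 2 (0.0289) or Dox 24 h replicate 1 (0.045).

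**Figure D5:**
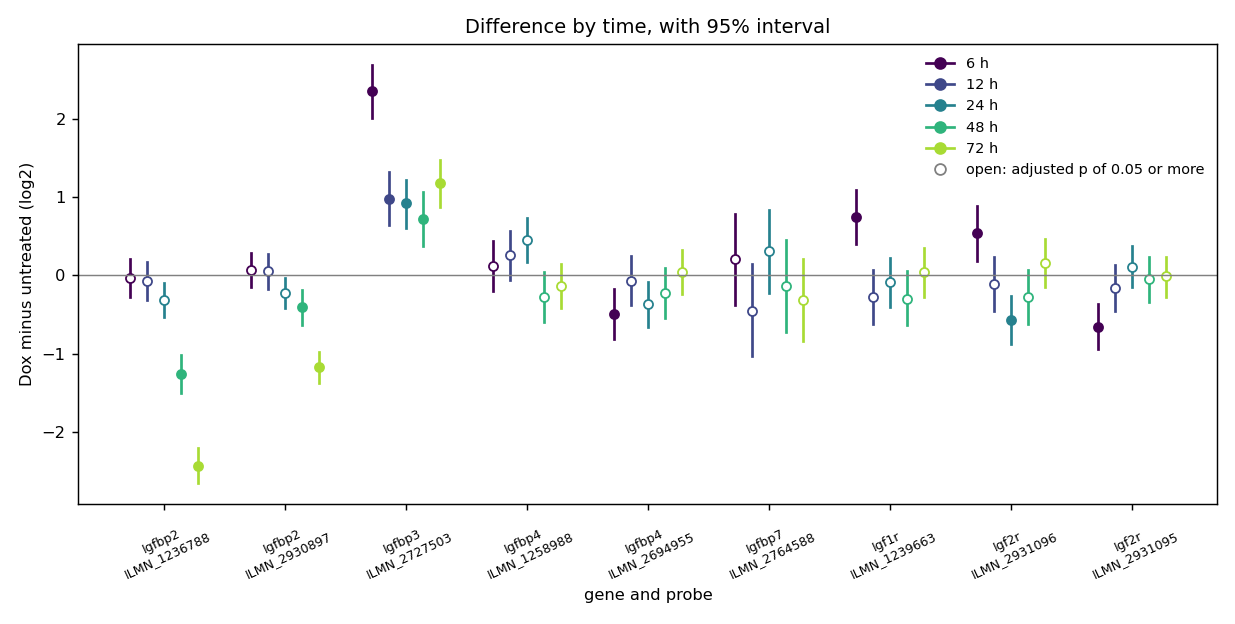
Dox minus untreated on the log2 scale for the 9 kept probes at 6, 12, 24, 48 and 72 h, with 95% intervals from the limma fit and filled points at an adjusted p below 0.05. The first Igfbp2 probe falls from -0.03 at 6 h to -2.43 at 72 h, Igfbp3 lies above 0 at each time, and the Igfbp4, Igfbp7, Igf1r and Igf2r probes lie between -0.66 and 0.75.

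Within untreated cultures 4 of 9 member probes differed between 72 and 24 h, where 17.1% of all kept probes did. Both Igfbp2 probes were higher at 72 h. ILMN_1236788, detected on 1 of 3 arrays at 24 h, differed by 2.19 (SE 0.11, adjusted p = 1.56e-13), and ILMN_2930897, detected on 0 of 3, was at least 1.66-fold higher at 72 h (measured means 5.51 and 4.49, adjusted p = 1.36e-08). Both probes were kept through these untreated arrays, so the detection filter favours such a difference. Igfbp4 ILMN_2694955 (-0.44, adjusted p = 0.0295) and Igf2r ILMN_2931096 (-0.91, SE 0.15, adjusted p = 0.000101) were lower. The Igfbp4 call ended without any untreated 24 h replicate (-0.46 to -0.40) or without untreated 72 h replicate 1 (-0.31, adjusted p = 0.187). In cultures labelled Dox 2 of 9 differed, against 14% of all kept probes: Igfbp4 ILMN_1258988 (-0.58, adjusted p = 0.00477) and Igf2r ILMN_2931095 (-0.39, adjusted p = 0.0361). The first of these calls ended without Dox 24 h replicate 2 (-0.42, adjusted p = 0.0553). The second ended without that replicate (-0.26, adjusted p = 0.239), without Dox 24 h replicate 3 (-0.43, adjusted p = 0.0503), and without Dox 72 h replicate 1 (-0.42, adjusted p = 0.0634) or 2 (-0.32, adjusted p = 0.163). The Igfbp2 probes both differed by 0.07 in Dox cultures (95% intervals -0.15 to 0.29 and -0.12 to 0.27), below detection at both times. Culture time and array set cannot be told apart in these comparisons.

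Igfbp3 in untreated cultures differed by -0.12 between 72 and 24 h (95% interval -0.42 to 0.19). Against 6 h it was 1.46 higher at 72 h (adjusted p = 6.93e-08), which rests on the 2 arrays that stand apart. With Dox, Igfbp3 differed by 0.14 between 72 and 24 h (-0.16 to 0.44).

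Of the other genes of the pathway, most ligands and partners were detected on few arrays or none. Igf1 was detected on 1 array, Igf2 on 9 and Igfals, the third subunit of the serum IGF complex, on 27, while Ins2, Igfbp1, Igfbpl1 and Lrp1 were detected on none. Igf2 differed by -0.30 and Igfals by -0.24 at 72 h (adjusted p = 0.3 and 0.54). None of the 13 kept genes of 18 receptor adaptors and proximal regulators was called at 24, 48 or 72 h. At these times 2.54, 2.35 and 5.61% of all kept probes were called. The medians of the list were -0.02, -0.05 and 0.05, and Irs2 differed by 0.25 at 72 h (adjusted p = 0.795). At 6 h, where 25.4% of all kept probes were called, Shc1 and Ptpn1, an adaptor and a phosphatase, were lower (-0.71 and -0.59), against the untreated arrays that stand apart.

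In the PI3-kinase, AKT and mTOR cascade 16 of 26 genes were kept. Pik3r1, a regulatory subunit of PI3-kinase, was higher at 24 h (0.74, adjusted p = 0.0114, and 0.21 on its other probe), a call lost under a block for array set (0.56, adjusted p = 0.464). Leaving out untreated replicate 1 or 3 or Dox replicate 2 or 3 also ended it (0.59 to 0.71, adjusted p up to 0.106). Pik3cb, a catalytic subunit, was lower at 72 h (-0.49, adjusted p = 0.0119) but was not called without untreated replicate 1 (-0.39, adjusted p = 0.108) or without Dox replicate 2 (-0.45, adjusted p = 0.0678). Nor was it on the authors' values (-0.27, adjusted p = 0.11). The cascade's median difference at 72 h was 0.03.

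Among 6 kept genes of 12 binding protein proteases and their inhibitors, Adamts1, a secreted metalloproteinase, was lower at 72 h (-0.64, adjusted p = 0.00789). It was higher at 6 h (1.33, adjusted p = 1.23e-06), against the untreated arrays that stand apart. Adamts1 at 72 h was not called without untreated replicate 1 (-0.56, adjusted p = 0.0629) or without Dox replicate 3 (-0.55, adjusted p = 0.059). Nor was it on the authors' values (-0.28, adjusted p = 0.0933). Bmp1, a procollagen proteinase, was higher at 48 h on 1 of 3 probes (0.50, adjusted p = 0.0205, against -0.02 and 0.30), and this ended without either Dox replicate (0.54, adjusted p = 0.105, and 0.47, adjusted p = 0.191) or without untreated replicate 3 (0.36, adjusted p = 0.121). The Bmp1 call was also lost on the authors' values (0.31, adjusted p = 0.372). Of 14 kept genes of 16 FoxO targets, which rise when AKT signalling is low, Txnip, a thioredoxin inhibitor, was lower at 72 h (-0.93, adjusted p = 0.000712). Trp53inp1, a stress protein, was lower at 24 h (-0.63, adjusted p = 0.00182, and -0.06 on its other probe). The Trp53inp1 call was lost under a block for array set (-0.60, adjusted p = 0.108). The medians of that list were -0.05, -0.02 and -0.03 at 24, 48 and 72 h, and Igf2bp1, the 1 kept gene of 3 IGF2 mRNA-binding proteins, differed by 0.29 at 72 h (adjusted p = 0.443). No gene of these lists was called at 72 h other than Pik3cb, Adamts1 and Txnip, where 5.61% of all kept probes were called.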

How the data were processed

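Expression was read on 29 Illumina bead arrays of keratinocyte RNA. The authors deposited, per the file headers, an intensity per probe without normalization, with a detection p-value beside it. The authors also deposited normalized log2 values, by a method that the sources used here do not state. The neqc function of limma 3.58.1 (R 4.3.3) corrected the background and set quantiles equal between arrays, using the detection p-values and an offset of 16, so folds of dim probes are understated. Probes detected at p below 0.01 on at least 2 arrays were kept. One limma fit held 10 group means over 27 replicates, with 17 residual degrees of freedom and Benjamini-Hochberg adjustment over 11794 probes at 0.05. It was tested on simulated data.

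The members, the gene lists, the array sets and the tests were chosen with earlier results of these data known. All kept member probes are named, with other list genes called at 24, 48 or 72 h (up to 4 per list, brightest probe) and the 3 genes most like Igfbp2 and Igfbp3. The median signal of an array lay between 54.5 and 74.5 with 33.4 to 37.8% of its probes detected, and the number of arrays limits the precision. Alternatives covered normalization, background, offset, filter, array weights, sets, an Actb covariate, a replicate block and left-out replicates. Description letters were checked for pairing: the deviations of same-letter samples correlated above 0.1 in 1 of 12 pairs (-0.053 to 0.15), so samples were not paired.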

Additional observations from a re-analysis of the deposited data

Results flagged for a closer look

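The Dox minus untreated difference varied with time, in the F test over 5 times (limma, adjusted over all kept probes), for 6 member probes. For Igfbp2 the adjusted p was 2.48e-10 on probe ILMN_1236788 and 1.96e-06 on ILMN_2930897. The differences ran from -0.03 and 0.07 at 6 h to -2.43 and -1.17 at 72 h. Every array labelled Dox at 48 and 72 h lay below every untreated array of its time, though at 48 h ILMN_2930897 was below detection in both groups. Both probes were kept through untreated arrays alone, so the detection filter favours such differences. For Igfbp3 the adjusted p was 8.15e-05, with Dox arrays higher at all 5 times, by 0.72 to 2.35. For Igf1r it was 0.0114, and for the Igf2r probes ILMN_2931096 and ILMN_2931095 it was 0.00836 and 0.0408, and the differences of these 3 probes at 72 h were 0.04, 0.16 and -0.01. The last 4 results ended without the 6 h arrays (adjusted p = 0.633 for Igfbp3, 0.739 for Igf1r, 0.234 and 0.831 for Igf2r).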

How the results depend on the processing

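At 72 h the count of 3 called member probes stayed at 3 under 14 of 14 alternatives and with each replicate left out. At 6 h the count of 5 fell to 3 with median scaling, 3 on the authors' values and 1 with the Actb covariate, and was 2 to 5 with a replicate left out. At 12 h the count of 1 fell to 0 with the array set as a block, the Actb covariate or only the 2 groups compared, and was 0 to 1 with a replicate left out. At 24 h the count of 2 fell to 1 without a detection filter, with the set as a block, with the Actb covariate and with only the 2 groups compared, and was 1 to 2 with a replicate left out. At 48 h the count of 3 fell to 0 on the authors' values and to 1 in a fit of the arrays of 1 set or of the 2 groups compared, and was 1 to 2 with a replicate left out. It was 2 with median scaling, without background correction, with an offset of 50 and with array weights, where the second Igfbp2 probe was not called (adjusted p = 0.0508, 0.0526, 0.182 and 0.0566). The F test count of 6 fell to 3 with the Actb covariate and 2 without 6 h, and was 5 to 7 with a replicate left out. The count of 4 for untreated 72 h minus 24 h was 7 for 72 h minus 6 h, where Igfbp3 (1.46) and Igf1r (0.60) turned from just below to above 0, and was 3 to 4 with a replicate left out. The count of 2 for Dox 72 h minus 24 h fell to 1 without a detection filter and with only the 2 groups compared, and was 0 to 2 with a replicate left out. The causes were not tested, and at 6 h the Actb covariate can hardly be told from treatment. With a replicate block for the description letter, which does not pair the samples, the second Igfbp2 probe differed by -0.40 at 48 h (adjusted p = 0.0508) and in the F test Igf2r ILMN_2931095 and Igfbp4 ILMN_1258988 gave an adjusted p of 0.0527 and 0.0381. No other member call changed under the block. Over all kept probes, the counts called that moved by over 1.5 times were, at 6 h, 801 on the authors' values, 265 with the Actb covariate and 1988 without untreated replicate 2 (2991 as reported). At 12 h they were 13 with the set block, 3 with the covariate, 22 with only the 2 groups, and 12 to 92 without untreated replicate 1 or Dox replicate 2 or 3 (189). At 24 h they were 521 with median scaling, 50 with the set block, 109 with only the 2 groups, and 146 to 171 without untreated replicate 1 or 3 or Dox replicate 2 or 3 (300). At 48 h they were 41 on the authors' values, 95 with 1 set, 76 with only the 2 groups, and 139 and 157 without a Dox replicate (277). At 72 h they were 1012 with array weights and 440 without untreated replicate 1 (662). The F test gave 505 with the covariate and 199 without 6 h (1808), and 72 h minus 6 h gave 5242 untreated and 4238 with Dox (2019 and 1646 against 24 h). Where a left-out replicate leaves 1 array in a group, that array is assumed to vary like the other groups. The authors' values share a distribution within each set that differs between sets, and were not run at 12 and 24 h or between times, and the set block could not be fitted between times.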
